A study of Mus musculus with 4 samples.

Results

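The genes described here carry glucose from the cell surface to lactate, into glycogen and through the pentose phosphate pathway. They form a list of 44 genes chosen by name, and every probe set, a group of short probes for 1 transcript, that is annotated with a single symbol from the list was taken, which gave 87 of the 45101 probe sets on the array. Of the 44 genes, 40 had an ordinary probe set. Gapdh had only its 3 control probe sets. Gpi1, Eno1 and G6pdx had no probe set with a single symbol in the annotation used, and were not analysed here. A further 4 probe sets carried several symbols that included a list gene, and they were left out. The samples were RAW264.7 cells, a virus-transformed mouse macrophage line, grown in DMEM with serum for 4 days under 4 conditions with 1 Affymetrix array each. They were hypoxia with IL6 (HC+IL6), hypoxia without IL6 (HC), normoxia with IL6 (NC+IL6) and normoxia without IL6 (NC). According to its methods, cells in hypoxia were kept at 1% oxygen, and IL6, which acts through the transcription factor STAT3, was given at 25 ng/ml. The study asked with these arrays how hypoxia changes macrophages that respond to IL6.

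Glycolysis splits glucose into pyruvate in the cytosol. Pyruvate is then reduced to lactate, which leaves the cell, or enters mitochondria through pyruvate dehydrogenase, which pyruvate dehydrogenase kinases switch off. Glucose can also be stored as glycogen, or be oxidised in the pentose phosphate pathway, which supplies NADPH and ribose. Most glycolytic steps are catalysed by several isoforms from different genes, and many of these genes are known targets of the hypoxia-inducible factors (HIF). Macrophages depend on glycolysis when activated, and they use NADPH of the pentose phosphate pathway for the oxidative burst.

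The values were log2 signals, so that a difference of 1 is a 2-fold difference in signal. Genes that macrophages should lack, being specific to other tissues, were measured by 94 probe sets, and their 95th percentile on an array is called its floor. It lay at log2 signals of 6.86 in HC+IL6, 6.81 in HC, 6.75 in NC+IL6 and 6.70 in NC. A gene was represented by its brightest ordinary probe set, and it was kept where its mean log2 signal over the 4 arrays was above 6.78, the mean of the floors. This filter kept 38 of the 40 measured list genes and 8986 of 18193 genes on the array. Each condition had 1 array, so that no difference was checked by replicates and none was tested, and precision is limited by how few arrays there are. As the only spread at hand, log2 ratios of probe sets of the same gene had a pooled SD of 0.37 for HC over NC, 0.37 for HC+IL6 over NC+IL6, 0.32 for NC+IL6 over NC and 0.33 for HC+IL6 over HC, over 3989 genes. This SD holds disagreement between probes and no variation between cultures.

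Macrophage markers were present, with 9 of 10 above the floor (the exception was Mrc1). Their summed signal was between 118951 and 128191 on the 4 arrays, but single markers differed. Of the 9 that passed the filter, 2 were called 2-fold higher in each hypoxia comparison, beside 3.76% and 2.72% of all genes. Itgam had folds of 3.13 in HC over NC and 3.24 in HC+IL6 over NC+IL6, and Fcgr3 had 3.48 and 2.16. Fcgr3 was also 2.46-fold higher in NC+IL6 over NC, and Itgam 2.06-fold higher in HC+IL6 over HC. No measured marker of T cells, B cells, neutrophils, epithelium, endothelium or fibroblasts passed the filter, and 1 of them, Epcam, was above the floor on an array (NC, log2 signal 7.18). Of 12 known HIF targets outside glucose use, 10 were 2-fold higher in HC over NC, among them Ankrd37 with a log2 ratio of 2.30. In HC+IL6 over NC+IL6 it was 6 of the 12, with Ankrd37 at 1.96 and Ddit4 at -0.16. These targets also differed between arrays with and without IL6, with 6 higher in NC+IL6 over NC and 3 in HC+IL6 over HC. Of 7 kept genes known to respond to IL6, 5 were higher in NC+IL6 over NC and 4 in HC+IL6 over HC. Socs3, a feedback inhibitor induced by STAT3, had log2 ratios of 2.23 for NC+IL6 over NC and 2.29 for HC+IL6 over HC. RNA integrity was read from Actb, whose signal at the 3' end over that at the 5' end was 1.62 in HC+IL6, 1.73 in HC, 1.41 in NC+IL6 and 1.54 in NC. For the control probe sets of Gapdh, itself a list gene, this ratio was 0.88 in HC+IL6, 0.87 in HC, 0.93 in NC+IL6 and 0.93 in NC. In hypoxia over normoxia the ratio was thus higher for Actb and lower for Gapdh. The part of RNA integrity in the results was not tested.

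In hypoxia a few genes of glucose use were over 2-fold higher, while most of the glycolytic chain stayed under that size. In HC over NC, 4 of 38 list genes were called higher at 2-fold (Pfkfb3, Aldoc, Eno2 and Gbe1) and none was lower, beside 3.76% of all genes higher and 1.1% lower. In HC+IL6 over NC+IL6 it was again these 4 genes, with none lower, beside 2.72% of all genes higher and 1.39% lower. In NC+IL6 over NC, 4 genes were called higher (Slc2a1, Hk3, Pfkfb3 and Gys1) and none lower, beside 3.45% and 1.05% of all genes. In HC+IL6 over HC, 4 were higher (Slc2a1, Eno2, Gys1 and Gbe1) and 1 lower (Eno3), beside 2.38% and 1.85%. The median log2 ratio of the 38 genes was 0.24 in HC over NC, 0.27 in HC+IL6 over NC+IL6, 0.16 in NC+IL6 over NC and 0.15 in HC+IL6 over HC. Over all genes kept it was 0.04, 0.02, -0.04 and -0.03 in the same comparisons. The 4 genes higher in both hypoxia comparisons stand beside 1.26% of all genes that were. Called in at least 1 of the 4 comparisons were 8 list genes, beside 11.4% of all genes. The remaining 30 were under 2-fold in each of the 4 at their brightest probe sets, though dimmer probe sets of some were past it. With a filter on the brighter array of each comparison the same genes were called, beside 3.73% of all genes higher and 1.07% lower in HC over NC, 2.74% and 1.44% in HC+IL6 over NC+IL6, 3.53% and 1.04% in NC+IL6 over NC, and 2.46% and 1.84% in HC+IL6 over HC. Each array enters 2 of the comparisons, which are therefore not independent.

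**Figure D1:**
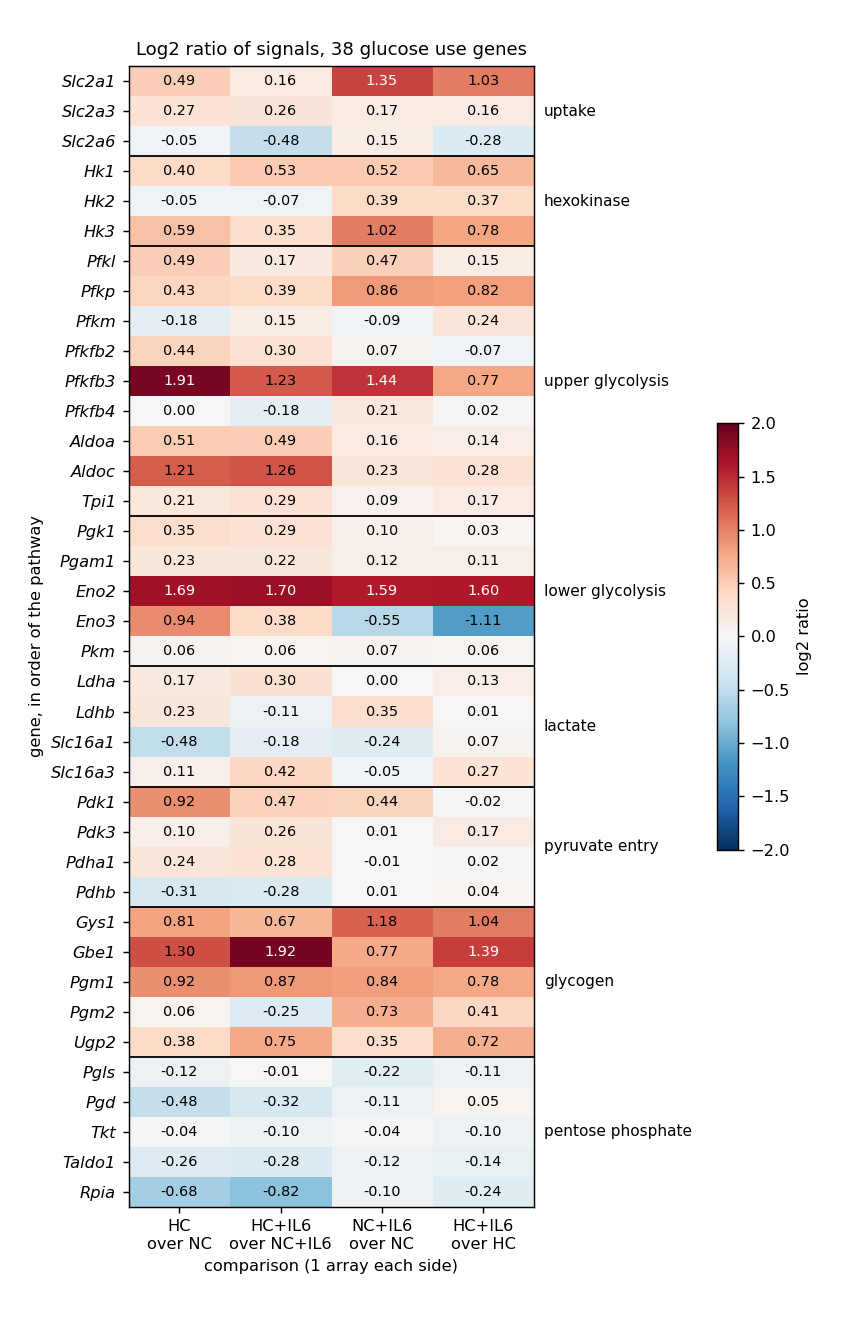
Log2 ratio of signals of the 38 glucose use genes that passed the filter (rows, in the order of the pathway) in 4 comparisons of 1 array with 1 array (columns), with red for higher and blue for lower. Glycogen genes are red in nearly every column, Eno3 has opposite colours for hypoxia and IL6, and the 5 pentose phosphate genes are blue in both hypoxia columns. The Eno2 ratios over NC use a signal under the floor.

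Among list genes above the floor in both HC and NC, the highest ratio for hypoxia alone was at the step that controls phosphofructokinase. The ratios of Eno2 and Pygl for these arrays are known only as bounds. Pfkfb3 encodes the enzyme that makes fructose 2,6-bisphosphate, the strongest activator of phosphofructokinase. Its log2 signal was 10.25 in HC+IL6, 9.49 in HC, 9.02 in NC+IL6 and 7.58 in NC, so that NC stood apart as the low array. The fold of Pfkfb3 was 3.75 for HC over NC, 2.35 for HC+IL6 over NC+IL6, 2.71 for NC+IL6 over NC and 1.70 for HC+IL6 over HC. Its other probe set was under the floor on all 4 arrays.

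Aldoc encodes an aldolase best known from brain, an enzyme that splits fructose 1,6-bisphosphate. Log2 signals of Aldoc were 13.22 in HC+IL6 and 12.94 in HC, against 11.97 in NC+IL6 and 11.73 in NC. Both hypoxia arrays were above both normoxia arrays, and arrays with and without IL6 differed little at this probe set. Its fold was 2.31 for HC over NC and 2.39 for HC+IL6 over NC+IL6. Its other probe set gave log2 ratios of 1.61 and 1.99 for these comparisons, but -0.83 for NC+IL6 over NC and -0.45 for HC+IL6 over HC, where the brighter probe set gave 0.23 and 0.28. The direction of the IL6 ratio of Aldoc was thus not settled by the array.

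Eno2 encodes an enolase known from neurons. It had log2 signals of 9.38 in HC+IL6, 7.78 in HC, 7.68 in NC+IL6 and 6.09 in NC, which was under the floor. HC and NC+IL6 were close, while the array with both treatments was far above them. Against the floor, Eno2 was at least 2.12-fold higher for HC over NC and at least 1.97-fold higher for NC+IL6 over NC. Its fold was 3.26 for HC+IL6 over NC+IL6 and 3.03 for HC+IL6 over HC. The call in HC over NC was lost after quantile normalization, after cyclic loess and when a background signal was added.

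Gbe1 encodes the branching enzyme of glycogen. The arrays gave it log2 signals of 11.79 in HC+IL6, 10.40 in HC, 9.87 in NC+IL6 and 9.10 in NC, with HC+IL6 standing apart as the high array. The fold of Gbe1 was 2.45 for HC over NC, 3.78 for HC+IL6 over NC+IL6, 1.70 for NC+IL6 over NC and 2.62 for HC+IL6 over HC. Only 1 probe set measured Gbe1, and likewise Eno2, and both are of the kind that matches several transcripts of a gene.

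**Figure D2:**
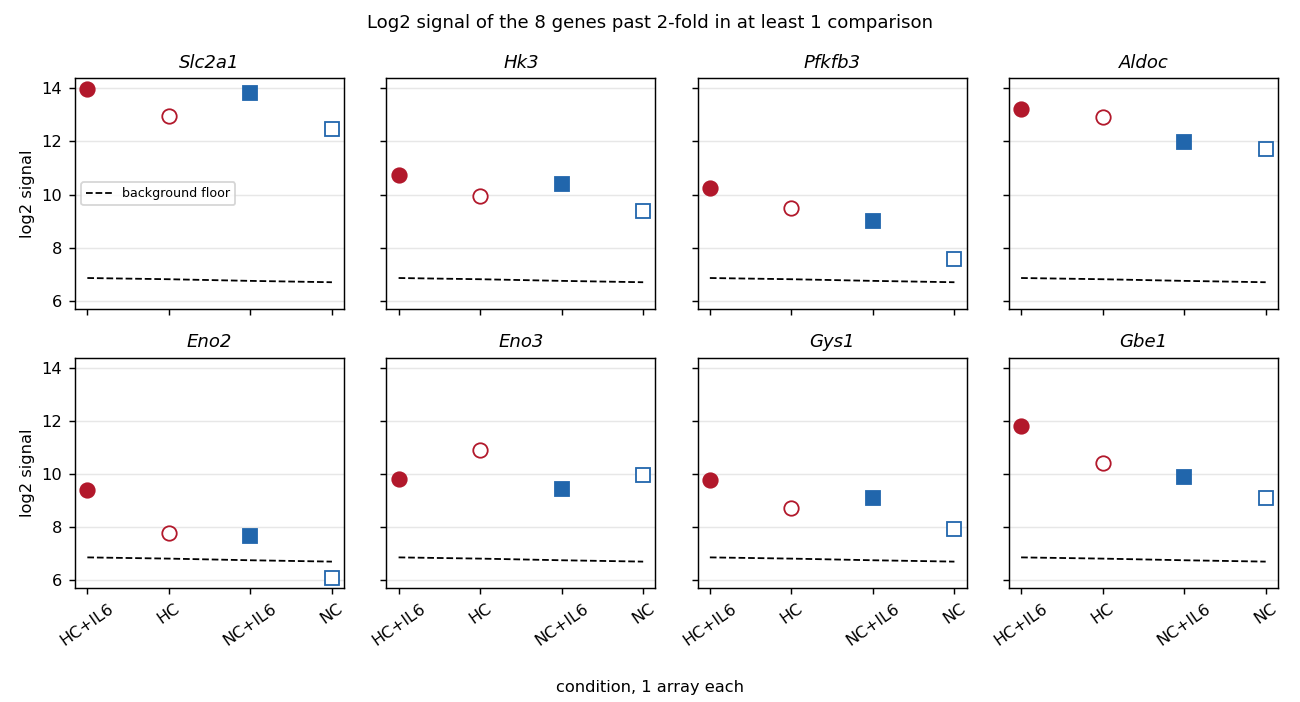
Log2 signal (vertical axis) of the 8 list genes past 2-fold in at least 1 comparison, on the arrays of HC+IL6, HC, NC+IL6 and NC (horizontal axis, 1 array each), with red circles for hypoxia, blue squares for normoxia, filled symbols for IL6 and a dashed line at the background floor. NC is lowest in every panel but that of Eno3, in which HC is highest at 10.90 and NC+IL6 lowest at 9.42, and Eno2 in NC lies under the floor.

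The promoters of these 4 genes are of interest because they were called together in both hypoxia comparisons. RefSeq windows of GRCm38.p6 were taken from 250 bases before the transcription start up to the start, and the core letters of the HIF binding motif, ACGTG and GCGTG, were searched on both strands. The palindrome CACGTG counts once on each strand. Windows of Pfkfb3 and Aldoc held them, and the letters found are in capitals below.
Pfkfb3, chr2:11502091-11502340, minus strand: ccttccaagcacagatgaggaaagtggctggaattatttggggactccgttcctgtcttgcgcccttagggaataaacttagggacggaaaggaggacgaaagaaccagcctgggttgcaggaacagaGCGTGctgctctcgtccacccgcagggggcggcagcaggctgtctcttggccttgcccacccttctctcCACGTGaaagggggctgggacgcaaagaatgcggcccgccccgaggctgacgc
Pfkfb3, chr2:11553930-11554179, minus strand: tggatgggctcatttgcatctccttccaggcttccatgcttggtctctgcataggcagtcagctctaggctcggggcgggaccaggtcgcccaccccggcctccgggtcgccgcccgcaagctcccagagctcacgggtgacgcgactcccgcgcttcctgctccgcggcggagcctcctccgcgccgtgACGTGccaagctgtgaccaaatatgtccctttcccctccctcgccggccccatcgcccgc
Aldoc, chr11:78322823-78323072, plus strand: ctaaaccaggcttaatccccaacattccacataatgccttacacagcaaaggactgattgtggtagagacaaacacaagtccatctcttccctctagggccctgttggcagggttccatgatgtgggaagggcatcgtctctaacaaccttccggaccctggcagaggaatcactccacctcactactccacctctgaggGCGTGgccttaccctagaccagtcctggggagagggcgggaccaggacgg
Aldoc, chr11:78323948-78324197, plus strand: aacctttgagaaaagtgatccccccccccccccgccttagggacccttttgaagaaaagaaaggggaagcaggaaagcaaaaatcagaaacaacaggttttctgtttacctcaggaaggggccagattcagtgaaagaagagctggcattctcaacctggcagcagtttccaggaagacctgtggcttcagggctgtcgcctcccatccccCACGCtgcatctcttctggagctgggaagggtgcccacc
The window of Eno2 (chr6:124769674-124769923, minus strand) and that of Gbe1 (chr16:70313699-70313948, plus strand) held neither string. Counted by gene, 2 of these 4 (50%) held at least 1 of the strings, beside 47.1% of protein-coding genes and 88.4% of list genes. Over the list, 48 of 61 windows (78.7%) held at least 1 of them, beside 44.01% of 21263 windows of protein-coding genes. ACGTG alone was found in 39.3% of list windows and 17.8% of those of protein-coding genes, and GCGTG in 55.7% and 33.8%. The median GC content moved with this, at 60.4% in list windows and 55.6% in those of protein-coding genes, and its part was not tested. Windows of some genes overlap and are not separate observations. The string ACGTG or its complement occurred 5 times in 1 window of Ldha, where overlapping letters of the palindrome count once per strand, and Ldha differed by 1.13-fold between HC and NC. The match of letters is a description and shows no binding.

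At the first step, glucose uptake, Slc2a1 differed more with IL6 than with hypoxia. Slc2a1 encodes GLUT1, the main glucose transporter of macrophages. It had log2 signals of 13.98 in HC+IL6, 12.95 in HC, 13.82 in NC+IL6 and 12.47 in NC, so that both IL6 arrays were above both arrays without IL6. Slc2a1 was 2.56-fold higher in NC+IL6 than in NC and 2.04-fold higher in HC+IL6 than in HC, beside 1.40-fold in HC over NC and 1.12-fold in HC+IL6 over NC+IL6. Its 3 probe sets gave log2 ratios of 1.24 to 1.45 for NC+IL6 over NC and 1.03 to 1.34 for HC+IL6 over HC. Slc2a3, the high-affinity transporter GLUT3, lay between 0.16 and 0.27 on the log2 ratio scale in all 4 comparisons, while its dimmer probe set gave 0.64 in NC+IL6 over NC and 0.40 in HC+IL6 over HC. Slc2a6, a lysosomal member of the family, had log2 ratios of -0.48 in HC+IL6 over NC+IL6 and -0.28 in HC+IL6 over HC.

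Hexokinases trap glucose as glucose 6-phosphate, and Hk3 and Hk2 also had higher ratios for IL6 than for hypoxia. Hk3, a hexokinase of myeloid cells, had log2 signals of 10.74 in HC+IL6, 9.96 in HC, 10.39 in NC+IL6 and 9.37 in NC. It was 2.02-fold higher in NC+IL6 than in NC and 1.72-fold in HC+IL6 over HC, and its other probe set gave log2 ratios of 1.04 and 1.32 for these. For hypoxia the brighter probe set gave 0.59 without and 0.35 with IL6. Hk1, the hexokinase of most tissues, had log2 ratios of 0.40 to 0.65 in the 4 comparisons. Its dimmer probe set gave 0.23 in HC over NC, 1.36 in HC+IL6 over NC+IL6, -0.05 in NC+IL6 over NC and 1.08 in HC+IL6 over HC, so that the order for Hk1 was not settled. Hk2, the isoform usually named as the HIF target, had -0.05 in HC over NC and -0.07 in HC+IL6 over NC+IL6, and 0.39 and 0.37 for IL6 in normoxia and in hypoxia.

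In the rest of upper glycolysis the ratios were smaller. Pfkp and Pfkl encode the platelet and liver types of phosphofructokinase, the committed step. Pfkp had log2 ratios of 0.86 in NC+IL6 over NC and 0.82 in HC+IL6 over HC, and 0.43 and 0.39 for hypoxia without and with IL6. Pfkl had 0.49 in HC over NC and 0.17 in HC+IL6 over NC+IL6, while its dimmest probe set above the filter gave 1.28 and 1.05. Pfkm, the muscle type, lay between -0.18 and 0.24. Pfkfb2 and Pfkfb4, relatives of Pfkfb3, had log2 ratios of 0.44 and 0.00 in HC over NC. Aldoa, the main aldolase, had 0.51 without and 0.49 with IL6 for hypoxia. Its 5 probe sets gave 0.09 to 0.70 without and 0.41 to 0.62 with IL6. Tpi1, which interconverts the triose phosphates, had 0.21 and 0.29.

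Apart from the enolases, the enzymes of lower glycolysis differed little. Gapdh, read from its control probe sets, had log2 signals of 14.78 (3' part), 14.81 (middle) and 14.97 (5' part) in HC+IL6, and 14.48, 14.33 and 14.58 in NC, with HC and NC+IL6 between 14.36 and 14.83. Pgk1, which makes the first ATP of the pathway, had log2 ratios of 0.35 in HC over NC and 0.29 in HC+IL6 over NC+IL6, and Pgam1, a mutase, had 0.23 and 0.22. Pkm, the pyruvate kinase at the end of the chain, had 0.06 in both. Of the list, 5 genes (Aldoa, Tpi1, Pgk1, Ldha and Tkt) had log2 signals over 14 on all 4 arrays, where the highest value of any probe set was 15.71. Their log2 ratios lay between -0.04 and 0.51 in HC over NC and between -0.10 and 0.49 in HC+IL6 over NC+IL6, and the part of saturation in this was not tested.

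Eno3, the enolase of muscle, was the only list gene past 2-fold downwards in the 4 comparisons. It was measured by 1 probe set only. Signals of Eno3 on the log2 scale were 9.79 in HC+IL6, 10.90 in HC, 9.42 in NC+IL6 and 9.96 in NC, so that HC was the high array and both IL6 arrays were under both arrays without IL6. Eno3 was 2.16-fold lower in HC+IL6 than in HC and 1.46-fold lower in NC+IL6 than in NC. Its log2 ratio for hypoxia was 0.94 without IL6 and 0.38 with IL6.

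Genes of lactate output and pyruvate entry stayed under 2-fold at their brightest probe sets. Ldha, the lactate dehydrogenase that favours lactate, had log2 ratios of 0.17 in HC over NC and 0.30 in HC+IL6 over NC+IL6, and Ldhb, its partner subunit, had 0.23 and -0.11. Slc16a3 (MCT4), which exports lactate, had 0.11 and 0.42, whereas Slc16a1 (MCT1), which carries lactate both ways, had -0.48 and -0.18. The direction of the lactate step in HC over NC turned with scaling, with 3 of 4 genes above 0 here and 1 of 4 after quantile normalization. Pdk1, a kinase that switches off pyruvate dehydrogenase, was the nearest to the threshold. Its brightest probe set had log2 signals of 11.41 in HC+IL6, 11.43 in HC, 10.94 in NC+IL6 and 10.50 in NC, with log2 ratios of 0.92 without and 0.47 with IL6 for hypoxia. The next probe set, at 11.04 and 11.23 in HC+IL6 and HC against 9.81 and 9.74 in NC+IL6 and NC, gave 1.23 with and 1.49 without IL6. Pdk3 had 0.10 in HC over NC and 0.26 in HC+IL6 over NC+IL6. Pdk2 failed the filter, with log2 signals between 3.53 and 5.15. Pdha1 and Pdhb, the subunits of the E1 enzyme of pyruvate dehydrogenase, had 0.24 and -0.31 in HC over NC and 0.28 and -0.28 in HC+IL6 over NC+IL6. The other probe set of Pdha1 gave -0.21 and -0.02 in these comparisons.

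The glycogen genes kept from the list had ratios mostly above 0 for hypoxia and for IL6 alike. At the brightest probe sets they had the highest median of the 8 steps in all 4 comparisons. Gys1 encodes glycogen synthase and had log2 signals of 9.77 in HC+IL6, 8.73 in HC, 9.10 in NC+IL6 and 7.92 in NC, with every treated array above NC. Gys1 was 2.27-fold higher in NC+IL6 than in NC and 2.06-fold higher in HC+IL6 than in HC, beside 1.75-fold and 1.59-fold for hypoxia without and with IL6. Pgm1, the phosphoglucomutase gene on chromosome 4 that older mouse annotation calls Pgm2, links glucose 6-phosphate to glycogen. Its log2 signal was 11.41 in HC+IL6, 10.63 in HC, 10.54 in NC+IL6 and 9.71 in NC, and its folds lay between 1.72 and 1.90 in the 4 comparisons. Ugp2, which makes the UDP-glucose that glycogen synthase uses, had log2 ratios of 0.75 in HC+IL6 over NC+IL6 and 0.72 in HC+IL6 over HC, and 0.38 and 0.35 in HC over NC and NC+IL6 over NC. All 5 of its probe sets were above 0 in each comparison. Over the 5 genes kept, the median log2 ratio was 0.81 in HC over NC, 0.75 in HC+IL6 over NC+IL6, 0.77 in NC+IL6 over NC and 0.78 in HC+IL6 over HC. The rank depended on the choice of probe sets. With the mean over probe sets, upper glycolysis had 0.57 against 0.55 for glycogen in HC over NC, and hexokinases had 0.86 against 0.66 in HC+IL6 over HC. Without probe sets shared between transcripts, uptake had 0.80 against 0.78 in NC+IL6 over NC, and hexokinases had 0.84 against 0.63 in HC+IL6 over HC. The exception in direction was Pgm2, on chromosome 5, with -0.25 in HC+IL6 over NC+IL6. It was grouped here with Pgm1 by family, and its part in glycogen was not examined. After quantile normalization a gene of the group also lay below 0 in HC over NC.

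Pygl, a phosphorylase that breaks glycogen down, failed the filter. Pygb, another glycogen phosphorylase outside the list, passed it. Its log2 signals were 9.27 in HC+IL6, 9.49 in HC, 9.55 in NC+IL6 and 9.89 in NC. The log2 ratios of Pygb were -0.40 and -0.28 for hypoxia without and with IL6, and -0.34 and -0.22 for IL6 in normoxia and in hypoxia. Other glycogen genes outside the list were mixed for IL6. In normoxia and in hypoxia, IL6 log2 ratios were -0.43 and -0.45 for Phka1, and -0.68 and -0.63 for Phka2. They were -0.61 and -0.44 for Phkb, 0.18 and -0.01 for Phkg2, and 0.20 and -0.06 for Gyg. Pygl reached 7.32 on the log2 signal scale in HC+IL6 and 7.02 in HC, both above the floor, against 4.89 in NC+IL6 and 4.18 in NC, both under it. Taken against the floor, its fold was at least 1.48 for HC+IL6 over NC+IL6 and at least 1.25 for HC over NC. Both bounds are under the threshold, so whether Pygl was past 2-fold is not known.

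The pentose phosphate genes kept from the list went the other way for hypoxia, with none past 2-fold. G6pdx, also on the list, was not analysed. All 5 genes kept had log2 ratios below 0 in HC over NC, between -0.68 and -0.04, and below 0 in HC+IL6 over NC+IL6, between -0.82 and -0.01. Of all 8986 genes kept, 4186 were below 0 in the first comparison and 4352 in the second. At their brightest probe sets, Rpia and Pgd were past the SD of 0.37 between probe sets in HC over NC. With IL6 only Rpia of the 5 genes was past it. Rpia, which makes ribose 5-phosphate, had the lowest values, namely 10.34 in HC+IL6 and 10.58 in HC on the log2 signal scale, against 11.16 in NC+IL6 and 11.26 in NC, so that both hypoxia arrays were under both normoxia arrays. Rpia was thus lower by 1.60-fold for HC over NC and by 1.76-fold for HC+IL6 over NC+IL6. Pgd, which yields NADPH, gave 13.82 in HC+IL6 and 13.78 in HC on the same scale, against 14.15 in NC+IL6 and 14.26 in NC. Its 4 probe sets gave -0.68 to -0.48 in HC over NC and -0.41 to -0.32 in HC+IL6 over NC+IL6. Taldo1, a transaldolase, had -0.26 and -0.28, Tkt, a transketolase, had -0.04 and -0.10, and Pgls, a lactonase, had -0.12 and -0.01. The dimmer probe set of Tkt gave -0.57 and -0.23. The median over the 5 genes was -0.26 in HC over NC, and -0.59 with the mean over probe sets. For HC over NC, 5 of 5 were also below 0 after quantile normalization and 4 of 5 after cyclic loess. With IL6 it was 4 of 5 and 3 of 5. For IL6 in normoxia the 5 genes lay between -0.22 and -0.04. Outside the list, hypoxia log2 ratios without and with IL6 were 0.70 and 0.09 for H6pd, and -0.15 and -0.08 for Rpe. They were -0.50 and -0.54 for Prps1, and 0.28 and 0.31 for Prps2.

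Some isoforms, or family members grouped at the same step, differed in their ratios, and some of the pairs compared are given here. Levels of different probe sets cannot be compared on an array, so only ratios are set side by side. The widest gap was between the enolases, where Eno2 minus Eno3 was 2.71 on the log2 ratio scale for HC+IL6 over HC and 1.33 for HC+IL6 over NC+IL6. With Eno2 in NC raised to the floor, it was at least 1.53 for NC+IL6 over NC and at least 0.14 for HC over NC. Eno2 and Eno3 had 1 probe set each, and Eno1 was not analysed. Pfkfb3 minus Pfkfb4 was 1.90 in HC over NC and 1.42 in HC+IL6 over NC+IL6. Slc2a1 minus Slc2a3 was 1.19 in NC+IL6 over NC and 0.87 in HC+IL6 over HC, but 0.22 and -0.10 for hypoxia without and with IL6. Pgm1 minus Pgm2 was 0.86 in HC over NC and 1.12 in HC+IL6 over NC+IL6, and 0.11 in NC+IL6 over NC. Aldoc minus Aldoa was 0.70 and 0.77 for hypoxia without and with IL6. Ldha minus Ldhb was -0.06 in HC over NC and 0.42 in HC+IL6 over NC+IL6. The first 4 of these gaps were over 1 in at least 1 comparison, while the last was near the SD between probe sets of a gene.

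**Figure D3:**
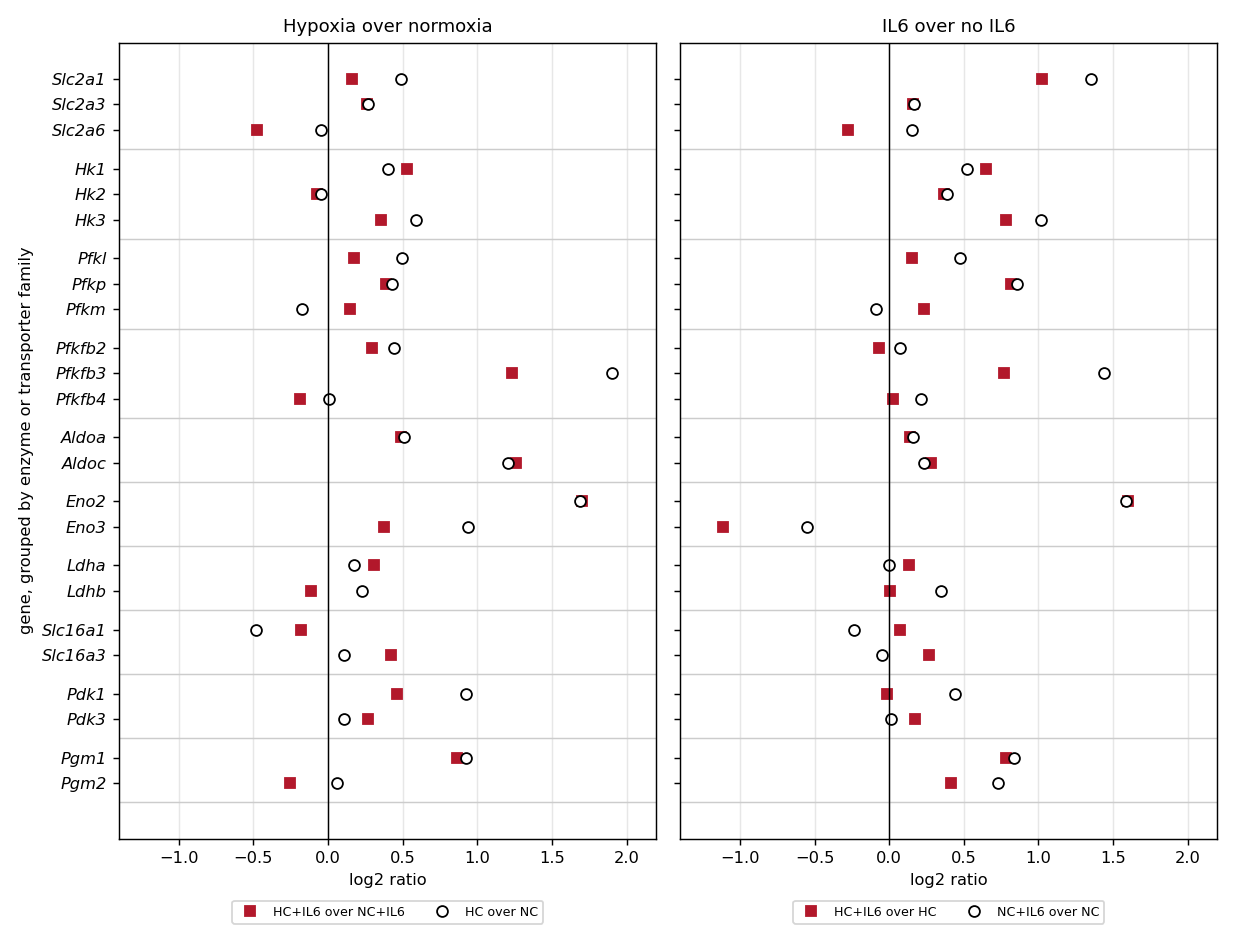
Log2 ratios (horizontal axis) of isoforms grouped by family (vertical axis), on the left for hypoxia over normoxia with IL6 (red squares) and without (open circles), and on the right for IL6 over no IL6 in hypoxia (red squares) and in normoxia (open circles), 1 array per condition. Pfkfb3, Aldoc, Eno2 and Pgm1 lie to the right of their relatives for hypoxia, and Slc2a1, Pfkfb3 and Eno2 lie to the right of theirs for IL6, where Eno3 lies left of 0. The Eno2 points over NC use a signal under the floor.

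The combination of both treatments held the highest signal for most of the list. HC+IL6 was the highest array for 23 of the 38 genes, beside 22.6% of all genes kept, and NC was the lowest array for 24, beside 25.1% of all genes. In contrast, NC was the highest for 6, beside 25.9% of all genes. The signal in HC+IL6 was 6.43-fold that in NC for Gbe1, 6.38-fold for Pfkfb3, at least 6.42-fold for Eno2, 3.61-fold for Gys1, 3.26-fold for Pgm1, 2.86-fold for Slc2a1, 2.81-fold for Aldoc and 2.59-fold for Hk3. It was 2.38-fold for Pfkp, 2.14-fold for Ugp2 and 2.07-fold for Hk1. At their brightest probe sets these and Pgm1 were under 2-fold in each of the 4 single comparisons. Dimmer probe sets were past it for Pfkp, with a log2 ratio of 1.18 in NC+IL6 over NC, and for Hk1, as given above. The share of all genes past 2-fold in HC+IL6 over NC was not computed, so these folds have no background beside them.

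The hypoxia log2 ratio with IL6 minus that without had a median of -0.02 over the 38 genes. It was 0.62 for Gbe1, -0.67 for Pfkfb3, -0.56 for Eno3, -0.46 for Pdk1 and -0.43 for Slc2a6. The other genes of the list, Eno2 aside, lay within the SD between probe sets for this difference, 0.39. Past that SD lay 2.63% of the list above and 10.5% below, beside 11.1% and 14.9% of all genes kept. The difference was not tested. Aldoc had 0.05. No such difference is known for Eno2, whose signal in NC was under the floor.

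**Figure D4:**
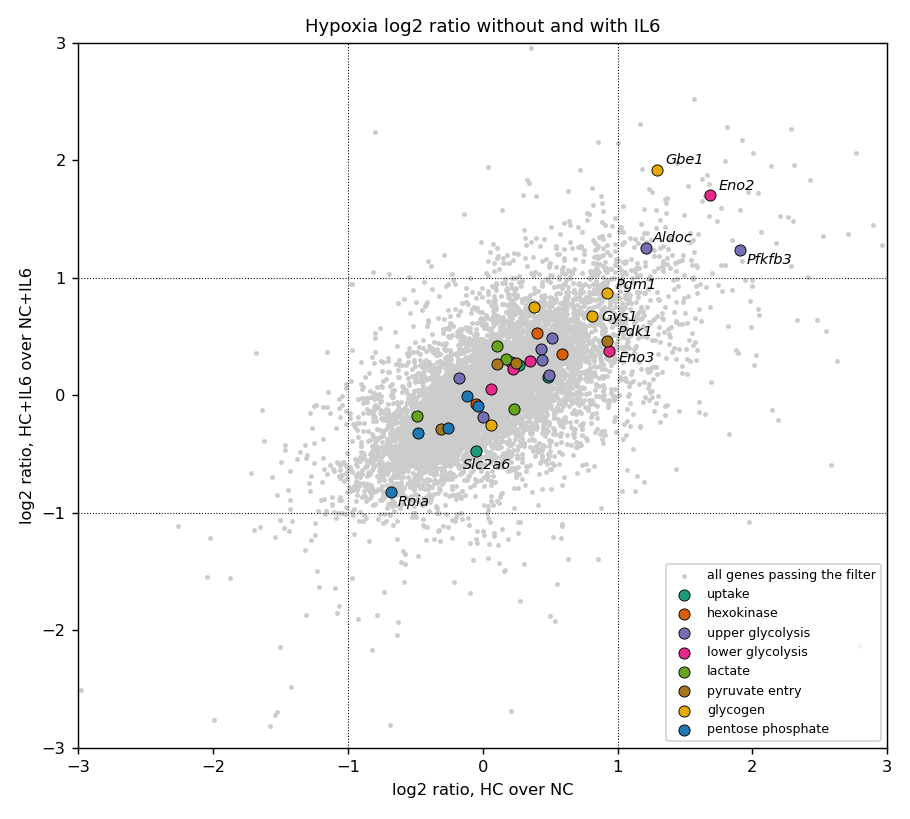
Log2 ratio of HC over NC (horizontal axis) and of HC+IL6 over NC+IL6 (vertical axis) for the 38 glucose use genes, coloured by step, over all genes that passed the filter in grey, with dotted lines at 2-fold and 6 grey genes outside the axes. Pfkfb3, Aldoc, Eno2 and Gbe1 lie past 2-fold on both axes (Eno2 with a signal under the floor in NC), and the pentose phosphate genes lie below 0 on both.

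Genes of the same pathways outside the list were also examined. Of 76 such genes, 69 had a probe set and 37 passed the filter. For HC over NC, 2 (5.41%) were higher, beside 3.76% of all genes, and none was lower. For HC+IL6 over NC+IL6, 2 (5.41%) were higher and 1 (2.70%) lower, beside 2.72% and 1.39%. For IL6, 1 (2.70%) was higher in normoxia and 1 in hypoxia, beside 3.45% and 2.38%, and none was lower. These shares rest on 1 or 2 genes. Their median log2 ratios were -0.02, 0.04, -0.11 and -0.12. Bsg, which encodes basigin, the chaperone of the lactate transporters, had log2 signals of 12.41 in HC+IL6, 11.62 in HC, 11.07 in NC+IL6 and 10.53 in NC. Its fold was 2.13 for HC over NC and 2.53 for HC+IL6 over NC+IL6. Pgm2l1, which makes glucose 1,6-bisphosphate, had folds of 2.05 and 2.44 in the same comparisons, and its log2 signal was 8.85 in HC+IL6 and 8.84 in HC, against 7.56 in NC+IL6 and 7.81 in NC. Pck2, the mitochondrial enzyme that makes phosphoenolpyruvate, was high in NC+IL6 only, at 11.17, with 10.12 in HC+IL6, 10.04 in HC and 10.00 in NC. It was 2.24-fold higher for NC+IL6 over NC and 2.06-fold lower for HC+IL6 over NC+IL6. Pgm3, which serves the synthesis of UDP-N-acetylglucosamine, was low in HC only, at 8.51, against 9.65 in HC+IL6, 9.88 in NC+IL6 and 9.44 in NC, and was 2.21-fold higher for HC+IL6 over HC.

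Probe sets of the same gene mostly gave the same direction. Of the 16 list genes with at least 2 probe sets past the filter, 15 had the same sign throughout in HC over NC and 15 in HC+IL6 over NC+IL6, with Pdha1 the exception in both. For IL6 the numbers were 11 in normoxia and 13 in hypoxia, and the genes with mixed signs included Aldoc in both. The distance between the highest and the lowest log2 ratio of a gene had a median of 0.37, 0.32, 0.39 and 0.32 in HC over NC, HC+IL6 over NC+IL6, NC+IL6 over NC and HC+IL6 over HC, and reached 1.06 for Aldoc in NC+IL6 over NC.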

How the data were processed

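RNA of RAW264.7 cells was hybridized to 1 Affymetrix array for each of 4 conditions. The authors deposited log2 signals that, per the labels, came from MAS5 (its version: not given in the sources used here). On every array, deposited values showed a mean signal of 500 after trimming 2% at each end, and 0 stands for a signal of 1 or less. MAS5 treats each array alone, so that the scaling between arrays rests on this mean.

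Gene symbols came from the platform annotation, with 34958 probe sets of 1 symbol, 932 of several, which were left out, and 9211 not listed. Of these, 34754 matched RefSeq of GRCm38.p6 and 0 symbols were updated. The members, the gene lists and the tests were chosen with earlier results of these data known. Floors came from 56 of 64 tissue-restricted genes, and 4 of them lay above a floor. A dimmer signal under its floor was raised to it, and the fold is then given as at least that size. Genes were called at 2-fold with no test. Genes named with the value on each array are those called in at least 1 comparison with either filter, and a few others (Pdk1, Pgm1, Rpia, Pgd, Pygl, Pygb, Pdk2 and the control probe sets of Gapdh) were added after their values were seen. Protein sequences were not used here. The calculations were checked on simulated arrays. Python 3.11.15, numpy 2.4.6, pandas 2.3.3, scipy 1.17.1 and matplotlib 3.10.9 were used, with limma 3.58.1 in R 4.3.3 for the alternatives. These were quantile normalization, cyclic loess, a shift of each array to a median ratio of 0, no floor, an added background signal, a filter on the brighter array, the mean over probe sets, and leaving out probe sets shared between transcripts.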

Additional observations from a re-analysis of the deposited data

How the results depend on the processing

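With 1 array per condition the limit of every value is the lack of replicates, and signals near the floor are known only as bounds. Replicates could not be paired, because each condition has 1 array and the labels give no replicate numbers. An additive fit of hypoxia and IL6, which would take their interaction as error, was not made. Counts of list genes past 2-fold and their median log2 ratios stayed within 1.5 times under all 8 alternatives, with the exceptions that follow. With the mean over probe sets, 2 list genes in place of 4 were higher in NC+IL6 than in NC, and 1 in place of 0 (Slc16a1, by a probe set under the floor) was lower in HC than in NC and 1 in HC+IL6 than in NC+IL6. Under that setting Gys1 fell under the filter and Pfkfb3 was not called for IL6. The other probe set of each is under the floor. Without probe sets shared between transcripts, which left 27 list genes and removed Eno2 and Gbe1, the median log2 ratio was 0.0721 in NC+IL6 over NC and 0.0591 in HC+IL6 over HC. Under these 2 settings Pdk1 was called higher in both hypoxia comparisons and Hk3 in HC+IL6 over HC, and Pfkl was called higher in HC over NC without the shared probe sets. Over all genes, higher calls made up 77.3% of calls in HC over NC, against 57.0% after quantile normalization and 60.99% after cyclic loess, with 175 and 158 lower genes in place of 99. In HC+IL6 over NC+IL6 the share was 66.1%, against 52.4% and 52.5%. Eno2 was also not called in HC over NC after quantile normalization, after cyclic loess or with the background signal added, but it was called in NC+IL6 over NC with cyclic loess, with shifted arrays and with no floor. The call of Hk3 in NC+IL6 over NC was lost with quantile normalization and with the added signal, and that of Slc2a1 in HC+IL6 over HC with quantile normalization. Pfkfb3, Aldoc and Gbe1 were called higher in both hypoxia comparisons under every alternative that kept their probe sets.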
